A study of Sus scrofa with 8 samples.

Results

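Rab GTPases are small proteins of the Ras superfamily that mark the compartments of the membrane traffic system. Each is switched on when a guanine nucleotide exchange factor (GEF) loads it with GTP and switched off when a GTPase-activating protein (GAP) makes it hydrolyse that GTP. In the GTP state a Rab sits on its membrane through prenyl groups and recruits effectors, among them motors, tethers and fusion factors. In a secretory and ciliated epithelium such as that of the oviduct, Rab proteins are known for apical recycling, for the release of secretory granules and for building cilia. The expression of the family was followed here through a month of primary culture of porcine oviductal epithelial cells. Members were all genes whose array annotation carried a symbol made of RAB, a number and at most 1 letter, with 1 probe set per gene. This gave 39 Rab genes of 10901 named genes, and every one of the 39 symbols is a gene of the RefSeq annotation of the pig. Another 20 Rab genes of that annotation, among them RAB5A, RAB7A and RAB31, were not analysed here.

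The cells came from crossbred landrace gilts about 9 months old, a herd group given as 45 animals. The removed epithelium was dispersed with collagenase and then trypsin and grown in DMEM with 10% fetal bovine serum, antibiotics and an antifungal, and all groups share this medium. Cells were harvested at 24h and at 7, 15 and 30 days of culture, with 2 Affymetrix arrays at each time and 8 arrays in all. RNA of pooled samples was amplified before labelling. Both arrays of a time are titled as biological replicates, without a word on whether they hold separate pools. The p-values therefore measure the spread between these arrays alone, and that spread may be technical. Values are log2 expression values after RMA, a method that puts the arrays on a common scale. They are compared within a gene across times, because probe sets differ in brightness. Levels of different genes enter only the marker sums and the marking of dim probe sets.

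The arrays had medians of 4.69 to 4.77 and lower quartiles of 3.37 to 3.49, and r between both arrays of the same time was 0.990 to 0.995 across probe sets. The labelled cell type was checked against its markers. At 24h the epithelial marker EPCAM read 11.22 and 11.24 and the oviductal glycoprotein gene OVGP1 read 10.46 and 11.78. OVGP1 already read 3.60 and 3.88 at 7 days. By 30 days EPCAM read 3.23 and 3.38, near the lower quartile of the arrays, while the keratin gene KRT8 still read 11.45 and 11.23. Of 8 epithelial markers, 6 were lower at 30 days than at 24h and 0 were higher, and their summed linear value went from 11129 to 13733 at 24h down to 4752 to 5987. Of 10 mesenchymal markers, 9 were higher and 0 lower, and their sum went from 500 to 506 at 24h up to 13787 to 14752. The sum of 5 endothelial markers went from 111 to 143 at 24h to 77 to 80, and that of 5 leukocyte markers from 83 to 121 to 79 to 83. Between 7 and 15 days, the epithelial sum went from 7511 to 7958 up to 8190 to 8831. The mesenchymal sum went from 4844 to 5467 up to 10904 to 10955. In that step 4 of the 8 epithelial markers were lower and 1 was higher at a limma adjusted p under 0.05. MUC1 changed by -2.79, CLDN7 by -2.48, EPCAM by -1.66 and GRHL2 by -1.59, against 0.57 for KRT8. KRT8 and KRT19 were the brightest of the 8 at 15 days (means of 11.85 and 11.92), so they weigh most in the linear sum. The part of these marker changes in the Rab changes that follow was not tested. In RNA from a whole culture, fewer cells of a type and less RNA per cell cannot be told apart.

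Of the 39 Rab genes, 6 were called with a change of at least 2-fold and 19 were called in no comparison. The epithelial recycling gene RAB25 and the granule gene RAB27A fell more than 10-fold over the month, and RAB32 and RAB34 rose about 3-fold. RAB27B and RAB37 rose in the first week and had lower means at 30 days than at 7 days. Against 24h, RAB27B was still called higher at 30 days and RAB37 was called lower. A gene was called at an adjusted p under 0.05 (limma, Benjamini-Hochberg over all 10901 genes), and "rose" and "fell" are used of called genes alone. Of 39 Rab genes, 13 were called at 7 days against 24h, 14 at 15 days and 15 at 30 days. Among all genes the called share was 33.7% at 7 days, 37.4% at 15 days and 41.2% at 30 days, against 33.3%, 35.9% and 38.5% of Rab genes. Between successive times 6 Rab genes were called from 7 to 15 days and 4 from 15 to 30 days, where 13.3% and 10.1% of all genes were called. Over the 4 times together 16 Rab genes passed limma's moderated F test, 41.0% against 46.3% of all genes. The share of Rab genes called thus lay near that of all genes in each comparison. A median Rab gene had group means that spanned 0.444 log2 units, against 0.441 for a median gene.

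Among called Rab genes, more rose than fell against 24h. At 7 days 11 rose and 2 fell, beside 18.3% of all genes higher and 15.4% lower. At 15 days 12 rose and 2 fell, beside 19.3% higher and 18.1% lower, and at 30 days 10 rose and 5 fell, beside 20.2% higher and 21.1% lower. From 7 to 15 days 1 rose and 5 fell (6.58% and 6.72% of all genes), and from 15 to 30 days 1 rose and 3 fell (3.94% and 6.11%). The median change of Rab genes from 24h was 0.16 at 7 days, 0.057 at 15 days and 0.10 at 30 days, beside -0.0064, -0.039 and -0.021 for all genes. The size of this tilt depended on single arrays and on the scaling. At 15 days 7 rose and 2 fell without replicate 1 of 15 days and 5 rose and 2 fell without replicate 2, and at 7 days 7 rose and 2 fell without replicate 1 of 24h. Centring each array on the median of the named genes moved all genes by -0.165 at 7 days and -0.166 at 15 days, and then 7 Rab genes were called higher and 6 lower at 7 days, and 10 higher and 6 lower at 15 days. The median Rab change was then -0.0026 at 7 days and -0.11 at 15 days, beside -0.171 and -0.205 for all genes. Of all calls 36% were then higher at 7 days and 34.3% at 15 days, against 54.2% and 51.5% without centring. Of Rab calls 53.8% and 62.5% were then higher, against 84.6% and 85.7%. From 15 to 30 days centring moved all genes by 0.128, with 3 Rab genes higher and 3 lower and 65.1% of all calls higher against 39.2%. A further quantile normalization gave 9 higher and 2 lower at 7 days, 11 and 3 at 15 days, and 2 and 3 from 15 to 30 days. All 3 comparisons with 24h share the 24h arrays, so their counts are not independent.

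**Figure D1:**
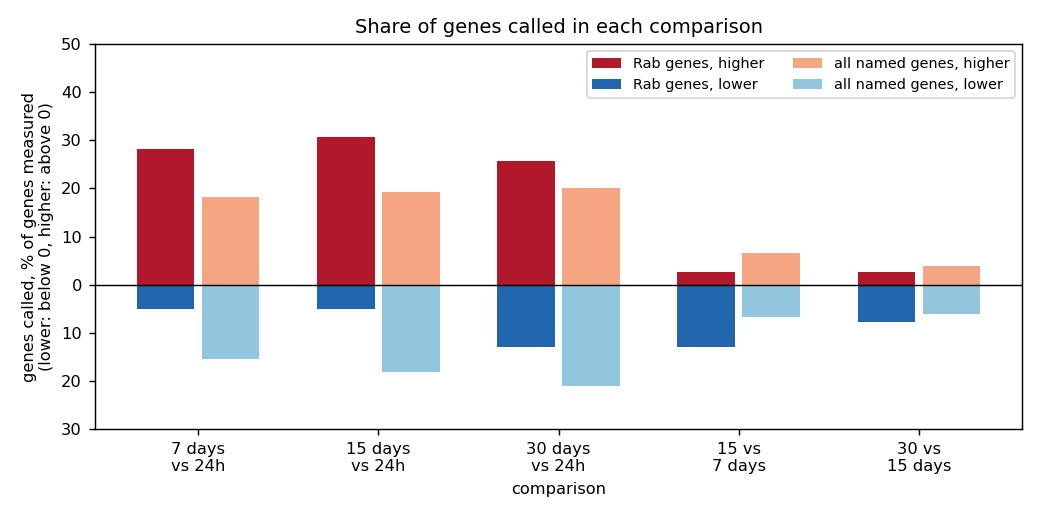
Share of the 39 Rab genes (dark bars) and of all 10901 named genes (pale bars) called in each comparison, in percent of genes measured, with genes called higher above 0 and genes called lower below it. In the comparisons with 24h the Rab bars reach higher above 0 than below it. The counts are 11 against 2 genes at 7 days, 12 against 2 at 15 days and 10 against 5 at 30 days. The tilt shrank to 7 against 6 at 7 days when arrays were centred on the median, where 36% of all calls were higher.

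Changes of at least 2-fold were called for 6 of the 39 genes in at least 1 comparison. These were RAB25, RAB27A, RAB27B, RAB32, RAB34 and RAB37. By comparison there were 4 such Rab genes at 7 days, 5 at 15 days and 4 at 30 days against 24h, 2 from 7 to 15 days and 1 from 15 to 30 days. Of all genes, 9.89%, 12.8% and 16.7% were called with such a change against 24h at the 3 later times, and 3.62% and 3.27% between successive times. The other 33 Rab genes had log2 changes of at most 0.96 in size.

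**Figure D2:**
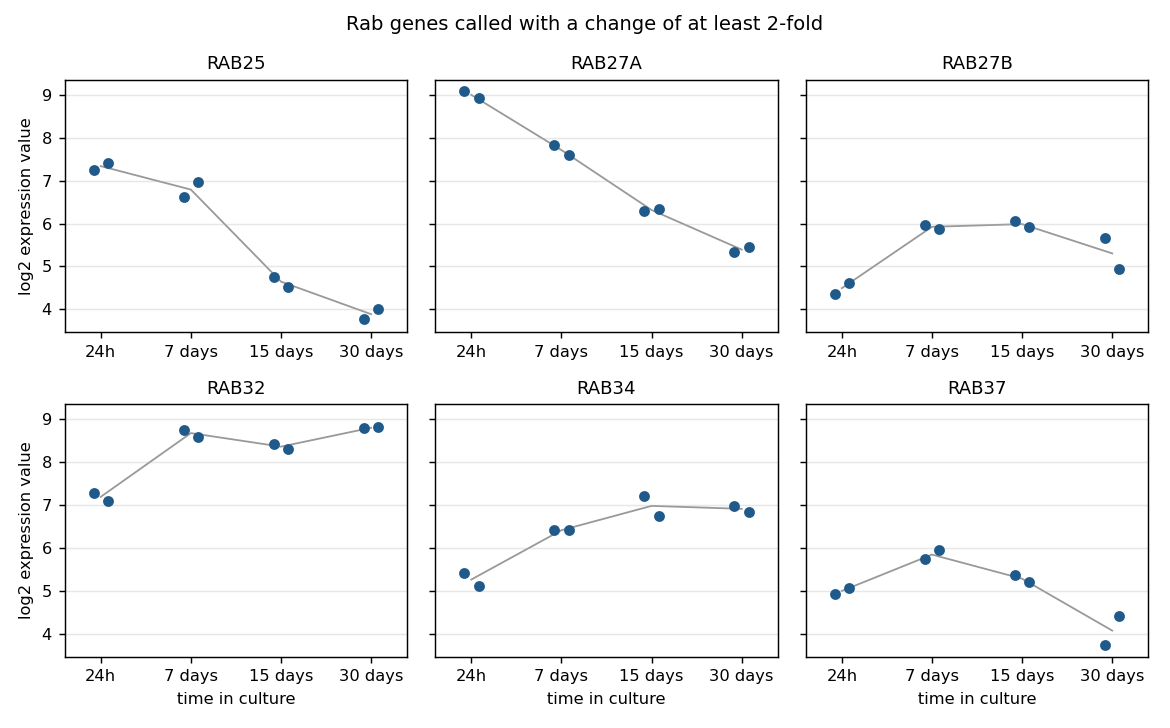
Log2 expression values of the 6 Rab genes called with a change of at least 2-fold, at each time in culture, with a point for each of the 2 arrays of a time and a line through the group means. RAB25 and RAB27A go down at each step, RAB32 and RAB34 stay above their 24h arrays from 7 days on, and RAB27B and RAB37 are higher at 7 days than at 24h and lower again at 30 days than at 7 days.

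RAB27A docks secretory granules and lysosome-related organelles at the plasma membrane. Its arrays read 9.08 and 8.91 at 24h, 7.83 and 7.59 at 7 days, 6.28 and 6.35 at 15 days and 5.34 and 5.45 at 30 days. The 4 groups did not overlap, and each time was lower than the one before it. RAB27A fell by 1.29 ± 0.13 in the first week (SE of the log2 change, limma adjusted p = 4.6e-05). It then fell by 1.40 to 15 days (limma adjusted p = 1.08e-04) and fell by 0.92 from 15 to 30 days (limma adjusted p = 0.00122). Over the month its mean went from 9.00 ± 0.12 to 5.39 ± 0.080 (SD, n = 2), a 12.2-fold decrease (limma adjusted p = 2.53e-08). All 5 calls for this gene held under every alternative setting that keeps the threshold. The step from 15 to 30 days was under 2-fold.

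RAB25 is an epithelial member of the Rab11 subfamily that returns receptors and integrins from recycling endosomes to the cell surface. It read 7.26 and 7.42 at 24h, 6.62 and 6.96 at 7 days, 4.76 and 4.53 at 15 days and 3.77 and 4.001 at 30 days. The 24h and 7 day arrays lay close together, with the main step between 7 and 15 days. There it fell by 2.15 ± 0.15 (SE, limma adjusted p = 3.42e-05). Over the month its mean went from 7.34 ± 0.12 to 3.89 ± 0.16 (SD, n = 2), a 10.9-fold decrease with a limma adjusted p of 1.2e-07. Both 30 day arrays lay under the array medians, where a dim gene cannot be told from an absent one. The earlier and later steps were smaller, -0.55 in the first week (limma adjusted p = 0.0201) and -0.76 from 15 to 30 days (limma adjusted p = 0.0116). The first-week call ended without replicate 2 of 24h (-0.47, adjusted p = 0.103) or replicate 1 of 7 days (-0.38, adjusted p = 0.133). The last call ended without replicate 1 of 15 days (-0.64, adjusted p = 0.126) or replicate 1 of 30 days (-0.64, adjusted p = 0.0832).

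The other measured genes of the recycling endosome moved far less than RAB25. RAB11A, the ubiquitous relative of RAB25 that runs the recycling endosome, read 9.79 and 10.21 at 24h and 9.75 and 9.49 at 30 days, and its change of -0.38 was not called (limma adjusted p = 0.082). It was called without replicate 1 of 24h (-0.59, adjusted p = 0.0167), under median centring (-0.42, adjusted p = 0.0462) and with a robust trended variance (adjusted p = 0.0315). RAB11B, its other relative, rose at 15 days alone by 0.34, and this call ended without replicate 1 of 24h (0.24, adjusted p = 0.203), without either 15 day array or either 30 day array (adjusted p = 0.0535 to 0.165) and under median centring (0.17). RAB35, which acts in fast recycling from the surface, read 8.12 and 7.99 at 24h and 7.69 and 7.45 at 30 days, and fell by 0.48 ± 0.12 (SE, limma adjusted p = 0.0102). That call ended without replicate 1 of 24h (-0.42, adjusted p = 0.0598) or replicate 2 of 30 days (-0.37, adjusted p = 0.0854). The change of RAB35 at 15 days, -0.33, was not called (limma adjusted p = 0.0638). It was called under median centring (-0.50) and with a further quantile normalization (-0.35). A block for the replicate number or a robust trended variance also gave a call (limma adjusted p = 0.037 and 0.0496). RAB14, which works between endosomes and the Golgi, was called in none of the 5 comparisons. With a robust trended variance its change of 0.25 at 30 days was called (limma adjusted p = 0.0342).

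RAB27B, the close relative of RAB27A that also serves granule and exosome release, went the other way. It read 4.37 and 4.62 at 24h, 5.97 and 5.88 at 7 days, 6.05 and 5.92 at 15 days and 5.66 and 4.95 at 30 days. Both 24h arrays lay under the array medians. Its 7 and 15 day arrays lay above both 24h arrays by more than 1 log2 unit, and the 30 day arrays lay apart from each other. RAB27B rose by 1.43 ± 0.20 at 7 days (SE, limma adjusted p = 4.47e-04) and was higher by 1.49 at 15 days (limma adjusted p = 2.66e-04), where the change of RAB27A was -2.68. At 30 days it was still higher by 0.81 (limma adjusted p = 0.00867), a value that was 0.46 without replicate 1 of 30 days (adjusted p = 0.0496) and whose call ended without replicate 1 of 24h (0.69, adjusted p = 0.0587). From 15 to 30 days its change of -0.68 was not called (limma adjusted p = 0.0669), but was -1.04 and called without replicate 1 of 30 days (adjusted p = 0.00549). Whether the changes of the 2 genes differ was not tested as such, although each was called, in opposite directions, at all 3 times.

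RAB37, a Rab of secretory granules, read 4.94 and 5.07 at 24h, 5.75 and 5.95 at 7 days, 5.37 and 5.21 at 15 days and 3.74 and 4.42 at 30 days. It was the one Rab gene called in both directions against 24h. It rose by 0.85 ± 0.20 at 7 days (SE, limma adjusted p = 0.00842), fell by 1.21 from 15 to 30 days (limma adjusted p = 0.00382) and ended with a change of -0.92 from 24h (limma adjusted p = 0.00375). The rise was not called without replicate 2 of 7 days (0.75, adjusted p = 0.0603), and the final decrease was -0.58 without replicate 1 of 30 days (adjusted p = 0.0184). Both 30 day arrays lay under the array medians.

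Of 12 measured Rab genes of exocytosis and regulated secretion, which include RAB27A, RAB27B and RAB37, 5 rose and 1 fell at 7 days, 3 rose and 1 fell at 15 days, and 2 rose and 3 fell at 30 days. Their called shares of 50%, 33.3% and 41.7% stand beside 33.7%, 37.4% and 41.2% of all genes, so that those at 15 and 30 days lay near the background. RAB3A, a Rab of regulated vesicle fusion, read 5.19 and 5.62 at 24h, 6.07 and 6.05 at 7 days, 5.99 and 6.12 at 15 days and 5.997 and 6.26 at 30 days. Every later array lay above both 24h arrays, and RAB3A was higher by 0.65, 0.65 and 0.72 ± 0.16 (SE, limma adjusted p = 0.0039 at 30 days). Its earlier calls ended without replicate 1 of 24h (0.44 and 0.43), and the one at 15 days also without replicate 2 of 15 days (0.58, adjusted p = 0.0671). With a further quantile normalization these changes were 0.46 and 0.46 and were not called. RAB3D, which sits on zymogen-type granules, read 7.83 and 7.98 at 24h and 7.51 and 7.44 at 30 days. It fell by 0.42 ± 0.12 at 30 days (SE, limma adjusted p = 0.0137), a call that ended without replicate 2 of 24h (-0.35, adjusted p = 0.0808) or replicate 2 of 30 days (-0.39, adjusted p = 0.0739). Under median centring RAB3D was also called lower at 7 days (-0.34, limma adjusted p = 0.0394) and at 15 days (-0.40, limma adjusted p = 0.0183). RAB3B was called in none of the 5 comparisons. Its changes of -0.25 at 15 days and -0.27 at 30 days were -0.52 and -0.54 without replicate 1 of 24h.

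Within the same group, RAB8A and RAB10, which carry cargo to the plasma membrane and to cilia, had mean changes of at most 0.22 in size from 24h and were not called. Under median centring RAB10 was called lower at 7 and 15 days (-0.31 at both) and RAB8A at 7 days (-0.36). RAB8A read 10.22 and 10.40 at 24h and 10.17 and 10.01 at 30 days. RAB8B, a relative of RAB8A, read 6.24 and 6.61 at 24h and 7.05 and 6.94 at 15 days, and its calls at 7 days (0.53) and 15 days (0.57) were among the least secure. They ended under median centring (0.37 and 0.40), with a further quantile normalization (0.41 and 0.43) and without replicate 1 of 24h (0.35 and 0.38). The call at 7 days ended without replicate 1 of 7 days too (0.31) and without any of the 15 and 30 day arrays (adjusted p = 0.0541 to 0.056). The call at 15 days ended without either 15 day array (0.51 and 0.62). RAB26, a Rab of secretory granules, was dim throughout, at 3.31 and 3.41 at 24h, 3.91 and 3.81 at 7 days and 3.37 and 3.44 at 15 days. The call of its 7 day increase, 0.50, ended under median centring (0.33) and without replicate 1 of 24h or of 7 days (both 0.45). That of its change to 15 days, -0.45, ended under both other scalings (-0.46 and -0.40) and without any one of the 24h, 7 day or 15 day arrays (adjusted p = 0.0505 to 0.25). RAB13, a Rab of tight junctions, and RAB44 were called in none of the 5 comparisons.

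RAB32 and RAB34 were the members with the largest increases at 30 days. RAB32, which serves lysosome-related organelles such as melanosomes and also acts at mitochondria, read 7.29 and 7.10 at 24h, 8.76 and 8.60 at 7 days, 8.43 and 8.30 at 15 days and 8.79 and 8.82 at 30 days. Its increase was in place by 7 days, when all later arrays lay more than 1 log2 unit above both 24h arrays. RAB32 rose by 1.49 ± 0.12 at 7 days (SE, limma adjusted p = 1.46e-05), was higher by 1.17 at 15 days (limma adjusted p = 4.28e-05) and ended 3.05-fold higher at 30 days (limma adjusted p = 3.62e-06). The step from 15 to 30 days, 0.44, was called (limma adjusted p = 0.0464), and that call ended without any of the 4 arrays compared (0.38 to 0.50). RAB38, its relative in melanosome traffic, was called in none of the 5 comparisons and was dim. It read 3.86 and 3.38 at 24h, 4.04 and 3.85 at 7 days, 4.18 and 3.94 at 15 days and 3.65 and 3.52 at 30 days. Without replicate 1 of 24h its changes at 7 and 15 days were 0.56 and 0.68 and were called (adjusted p = 0.0294 and 0.0112), and with the replicate number as a block its change at 15 days (0.43, adjusted p = 0.0191) and that from 15 to 30 days (-0.47, adjusted p = 0.0386) were called.

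RAB34, which acts in lysosome positioning and in the formation of primary cilia, read 5.41 and 5.13 at 24h, 6.42 and 6.42 at 7 days, 7.21 and 6.76 at 15 days and 6.98 and 6.85 at 30 days. No later array overlapped with those of 24h. RAB34 rose by 1.15 ± 0.16 at 7 days (SE, limma adjusted p = 4.52e-04), by 1.72 at 15 days (limma adjusted p = 2.69e-05) and by 1.65 at 30 days (limma adjusted p = 2.57e-05), a 3.13-fold increase. The step from 7 to 15 days, 0.57, lay at the threshold (limma adjusted p = 0.0488) and was not called without either 7 day array (0.57 and 0.56), without replicate 1 of 15 days (0.34) or without either 30 day array (adjusted p = 0.0712). Of all genes 33.7%, 37.4% and 41.2% were called at 7, 15 and 30 days against 24h. RAB34 was the one called of 7 measured genes of late endosomes, lysosomes and autophagy, a share of 14.3% at each of these times. The others were RAB9A, which returns receptors from late endosomes to the Golgi, RAB9B, RAB24, RAB36, RAB39A and RAB39B. RAB9A read 7.18 and 6.98 at 24h and 7.47 and 7.44 at 30 days, a change of 0.37 just short of a call (limma adjusted p = 0.052). It was called in 4 alternatives, without replicate 1 of 24h (0.47), without the dimmest 25% of genes, with a robust trended variance and with the replicate number as a block (adjusted p = 0.0261 to 0.0476). Its change from 15 to 30 days, 0.44, was called under both other scalings and with the block (adjusted p = 0.0187 to 0.0382).

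RAB23, a negative regulator of hedgehog signalling that acts at the primary cilium, and RAB28, a Rab found at the base of cilia, drifted upward through the month. RAB23 read 7.997 and 7.68 at 24h, 8.29 and 7.98 at 7 days, 8.38 and 8.45 at 15 days and 8.72 and 8.53 at 30 days. RAB28 read 7.14 and 7.23 at 24h, 7.36 and 7.34 at 7 days, 7.60 and 7.74 at 15 days and 8.07 and 7.91 at 30 days. For RAB28 the 4 times did not overlap and each was higher than the one before. At 30 days RAB23 was higher by 0.79 ± 0.15 (SE, limma adjusted p = 0.00188) and RAB28 by 0.80 ± 0.11 (SE, limma adjusted p = 2.99e-04). At 15 days both were also called, RAB23 with 0.58 and RAB28 with 0.48. The RAB23 call at 15 days ended without replicate 2 of 24h (0.42) or without either 15 day array (0.62 and 0.54), and that of RAB28 without replicate 2 of 15 days (0.41, adjusted p = 0.0765). Under median centring RAB28 at 15 days was 0.32 (adjusted p = 0.0481).

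**Figure D3:**
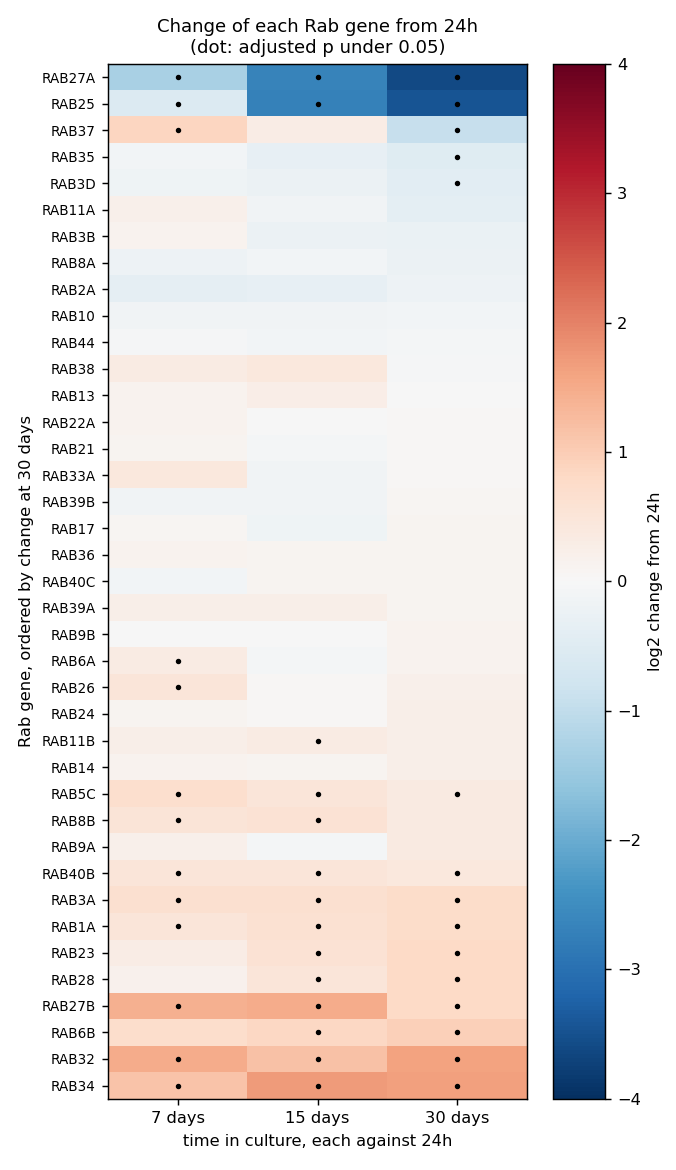
Log2 change from 24h of each of the 39 Rab genes at 7, 15 and 30 days, ordered by the change at 30 days, with blue for lower, red for higher and a black dot where the change was called at an adjusted p under 0.05. RAB27A and RAB25 stand apart at the low end (-3.61 and -3.45 at 30 days), RAB34 and RAB32 lie at the high end (1.65 and 1.61), and 20 genes carry no dot, 19 of them called in none of the 5 comparisons and RAB33A called from 7 to 15 days alone.

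Of 5 measured Rab genes of traffic between endoplasmic reticulum and Golgi, 2 rose at each time against 24h and 0 fell, a called share of 40% that lay near the 33.7%, 37.4% and 41.2% of all genes. RAB1A, which tethers vesicles that leave the endoplasmic reticulum, read 5.77 and 5.78 at 24h, 6.28 and 6.22 at 7 days, 6.45 and 6.35 at 15 days and 6.54 and 6.50 at 30 days. Its increases were small but even, with close replicates, at 0.48, 0.62 and 0.75 ± 0.10 (SE, limma adjusted p = 2.65e-04 at 30 days). The 7 day call ended with a further quantile normalization (0.27, adjusted p = 0.0538) and its value was 0.31 under median centring (adjusted p = 0.0367). RAB6B, the form of the Golgi gene RAB6A known from neurons, read 3.10 and 3.18 at 24h, 3.97 and 3.98 at 15 days and 4.58 and 3.63 at 30 days, all under the array medians. It was higher by 0.83 at 15 days and by 0.96 ± 0.24 at 30 days (SE, limma adjusted p = 0.0091), which became 0.49 without replicate 1 of 30 days (adjusted p = 0.0195). Its 15 day call ended without any of the 4 arrays compared (0.79 to 0.88).

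RAB6A itself, which recycles Golgi membranes, rose by 0.32 at 7 days and fell by 0.40 to 15 days. It read 9.19 and 9.28 at 24h, 9.60 and 9.501 at 7 days and 9.18 and 9.12 at 15 days, so that both 7 day arrays lay above the rest. The call of the rise ended without any one of the 8 arrays (adjusted p = 0.0596 to 0.167), under median centring (0.15), with the replicate number as a block (adjusted p = 0.0503) and with a fit of just the 2 groups compared (adjusted p = 0.12). That last fit also ended the 7 day call of RAB8B (0.0889), the 15 day call of RAB11B (0.0558) and the calls from 7 to 15 days of RAB6A (0.0524), RAB33A (0.0523) and RAB34 (0.0581). That of the fall ended without any one of the 7, 15 and 30 day arrays (adjusted p = 0.0504 to 0.208). RAB33A, a Golgi and autophagy Rab, had a change of -0.59 from 7 to 15 days, and this call ended without either 7 day array (-0.69 and -0.48), without replicate 2 of 15 days (-0.38) and with a further quantile normalization (-0.52). RAB2A, of the same pathway, read 10.13 and 10.26 at 24h, 10.03 and 9.67 at 7 days, 9.85 and 9.91 at 15 days and 10.07 and 9.92 at 30 days. Its changes of -0.35 at 7 days and -0.32 at 15 days were not called, but both were under median centring (-0.51 and -0.48) and with a robust trended variance (adjusted p = 0.0298 and 0.0409), and the first also without replicate 1 of 7 days (-0.52).

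Of 4 measured Rab genes of early endosomes 25% were called at each time against 24h, beside 33.7%, 37.4% and 41.2% of all genes. RAB5C was the one called. It is a form of RAB5, the Rab that drives fusion of early endosomes, and read 9.85 and 9.84 at 24h, 10.53 and 10.49 at 7 days, 10.28 and 10.38 at 15 days and 10.22 and 10.19 at 30 days. Each later array lay above both 24h arrays, with the 7 day arrays on top. RAB5C was higher by 0.67 ± 0.10 at 7 days (SE, limma adjusted p = 8.29e-04), by 0.49 at 15 days (limma adjusted p = 0.00446) and by 0.36 at 30 days (limma adjusted p = 0.0186). The 15 day call ended without replicate 2 of 15 days (0.43, adjusted p = 0.0509) and its value was 0.32 under median centring, and the 30 day call ended without any of the 4 arrays compared (0.34 to 0.38). RAB17, a Rab of transcytosis in polarised epithelia, RAB21, which sorts integrins, and RAB22A were not called. RAB17 read 4.37 and 4.39 at 24h and 4.41 and 4.54 at 30 days, a change of 0.098. All its arrays lay under the array medians, where a decrease may not be measurable. RAB25, which is also known from epithelia, changed by -3.45. Whether the changes of these 2 genes differ was not tested.

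RAB40B belongs to a group of Rabs that carry a SOCS box and form ubiquitin ligases. It read 3.64 and 3.77 at 24h, 4.14 and 4.21 at 7 days, 4.28 and 4.09 at 15 days and 4.10 and 4.14 at 30 days, dim at each time but with every later array above both 24h arrays. Its increases of 0.47, 0.48 and 0.42 ± 0.12 (SE at 30 days) were called. The calls at 7 and 30 days ended without replicate 1 of 24h (0.41 and 0.35), that at 30 days also without replicate 2 of 30 days (0.40), and that at 15 days without replicate 1 of 15 days (0.39). Under median centring they were 0.31 at 7 days, not called, and 0.32 at 15 days. Its relative RAB40C was called in none of the 5 comparisons.

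In all, 20 Rab genes were called in at least 1 of the 5 comparisons, beside 51.7% of all genes, and 19 in none. The changes of those 19 lay between -0.47 and 0.44. Of 12 Rab genes whose mean lay under the lowest array median, 4 were called in some comparison, against 16 of the other 27. The same split was not made for all genes, so it is not read as a trait of Rab genes. The value of RAB9B rests on 1 of a pair of probe sets that held identical values on all 8 arrays, and the other 38 genes had 1 probe set each.

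Genes that work with the Rabs were read from lists of regulators and effectors. Of 92 measured genes, 45 were called at 7 days, 46 at 15 days and 51 at 30 days against 24h, with 30, 24 and 30 of them higher. Centred on the median, 18 of 40 calls were higher at 7 days, 16 of 45 at 15 days and 30 of 54 at 30 days. The called shares were 48.9%, 50% and 55.4%, beside 33.7%, 37.4% and 41.2% of all genes. With a change of at least 2-fold, 9, 12 and 17 of the 92 were called, beside 9.89%, 12.8% and 16.7% of all genes. Of 23 measured GEFs, 4 rose and 6 fell at 30 days, 43.5% called. RAB3IP (Rabin8), the GEF that switches on RAB8A on the way to the cilium, read 7.23 and 7.29 at 24h, 6.31 and 6.03 at 7 days, 5.45 and 5.41 at 15 days and 4.33 and 4.84 at 30 days. Each time lay under the one before it without overlap, and RAB3IP fell by 2.67 ± 0.17 over the month (SE, limma adjusted p = 1.13e-06). DENND2D, a DENN domain GEF, fell by 2.34 ± 0.15 and SH3BP5L, a GEF of the Rab11 subfamily, fell by 1.54 ± 0.14. The 30 day arrays of DENND2D (3.75 and 3.88) lay under the array medians, where a dim gene cannot be told from an absent one. HPS1, part of the complex that activates RAB32 and RAB38, rose by 0.95 ± 0.11 (SE, limma adjusted p = 6.7e-05), beside the rise of RAB32.

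Of 25 measured GAPs, 11 rose and 4 fell at 7 days, 7 rose and 4 fell at 15 days, and 11 rose and 6 fell at 30 days. These are 60%, 44% and 68% called, beside 33.7%, 37.4% and 41.2% of all genes. With a change of at least 2-fold, 2, 3 and 4 of the 25 GAPs were called, beside 9.89%, 12.8% and 16.7% of all genes. USP6NL (RN-tre), a GAP of the RAB5 group, fell by 1.88 ± 0.18 (SE) and TBC1D30, a GAP known from the primary cilium, fell by 1.49 ± 0.12. TBC1D16, a GAP of the RAB4 group, rose by 1.08 ± 0.10, and EVI5L, described as a GAP of RAB23, rose by 1.05 ± 0.15. Of 7 measured genes of prenylation, extraction and delivery of Rabs, 3 rose and 1 fell at 30 days, 57.1% called. CHM, the escort protein that presents new Rabs for prenylation, rose by 1.07 ± 0.14 at 30 days, while RABGGTB, a subunit of the prenyl transferase, fell by 0.95 ± 0.17. RABAC1 and YIPF3, membrane proteins that help to place Rabs or work at the Golgi, rose by 0.79 ± 0.12 and 0.90 ± 0.13. GDI2, which keeps inactive Rabs in the cytosol, was not called (-0.20 at 30 days). The named regulators called in these lists had limma adjusted p of at most 0.00116 at 30 days. Those calls held under all 16 alternatives that keep the threshold.

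Of 37 measured effectors, 12 rose and 8 fell at 30 days, 54.1% called beside 41.2% of all genes. At 7 days 12 rose and 4 fell, and at 15 days 11 rose and 8 fell, 43.2% and 51.4% beside 33.7% and 37.4%. With a change of at least 2-fold, 5, 6 and 9 of the 37 were called at 7, 15 and 30 days, beside 9.89%, 12.8% and 16.7% of all genes. MYO5C, a myosin motor of secretory epithelia, read 6.78 and 7.11 at 24h, 6.47 and 6.08 at 7 days, 4.36 and 4.56 at 15 days and 3.54 and 3.95 at 30 days. The 15 and 30 day arrays lay far under the first-week ones, and MYO5C fell by 3.20 ± 0.19 over the month (SE, limma adjusted p = 7.38e-07). These later arrays also lay under the array medians, where a dim gene cannot be told from an absent one. MYO5B, the motor that carries Rab11 vesicles to the apical surface, read 8.15 and 8.42 at 24h, 8.27 and 8.23 at 7 days, 7.81 and 7.78 at 15 days and 6.50 and 6.54 at 30 days. Its change at 7 days, -0.04, was not called, and its main decrease came last. It fell by 1.27 ± 0.12 from 15 to 30 days (SE, limma adjusted p = 1.33e-04) and fell by 1.76 over the month (limma adjusted p = 2e-06). The third measured class V myosin, MYO5A, went the other way and was higher by 0.77 ± 0.13 at 30 days (SE, limma adjusted p = 7.63e-04), a gene named after its values were seen. RAB11FIP1, which binds RAB11A and RAB25, went from 8.99 and 9.15 at 24h to 7.92 and 7.87 at 7 days and 7.08 and 7.09 at 30 days, a change of -1.99 ± 0.11 (SE, limma adjusted p = 5.28e-07). MICALL2, a partner of RAB13 at tight junctions, rose from 4.51 and 4.80 at 24h to 6.89 and 6.89 at 7 days and stood at 6.34 and 6.01 at 30 days, higher by 1.52 ± 0.14 (SE, limma adjusted p = 1.87e-05).

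**Figure D4:**
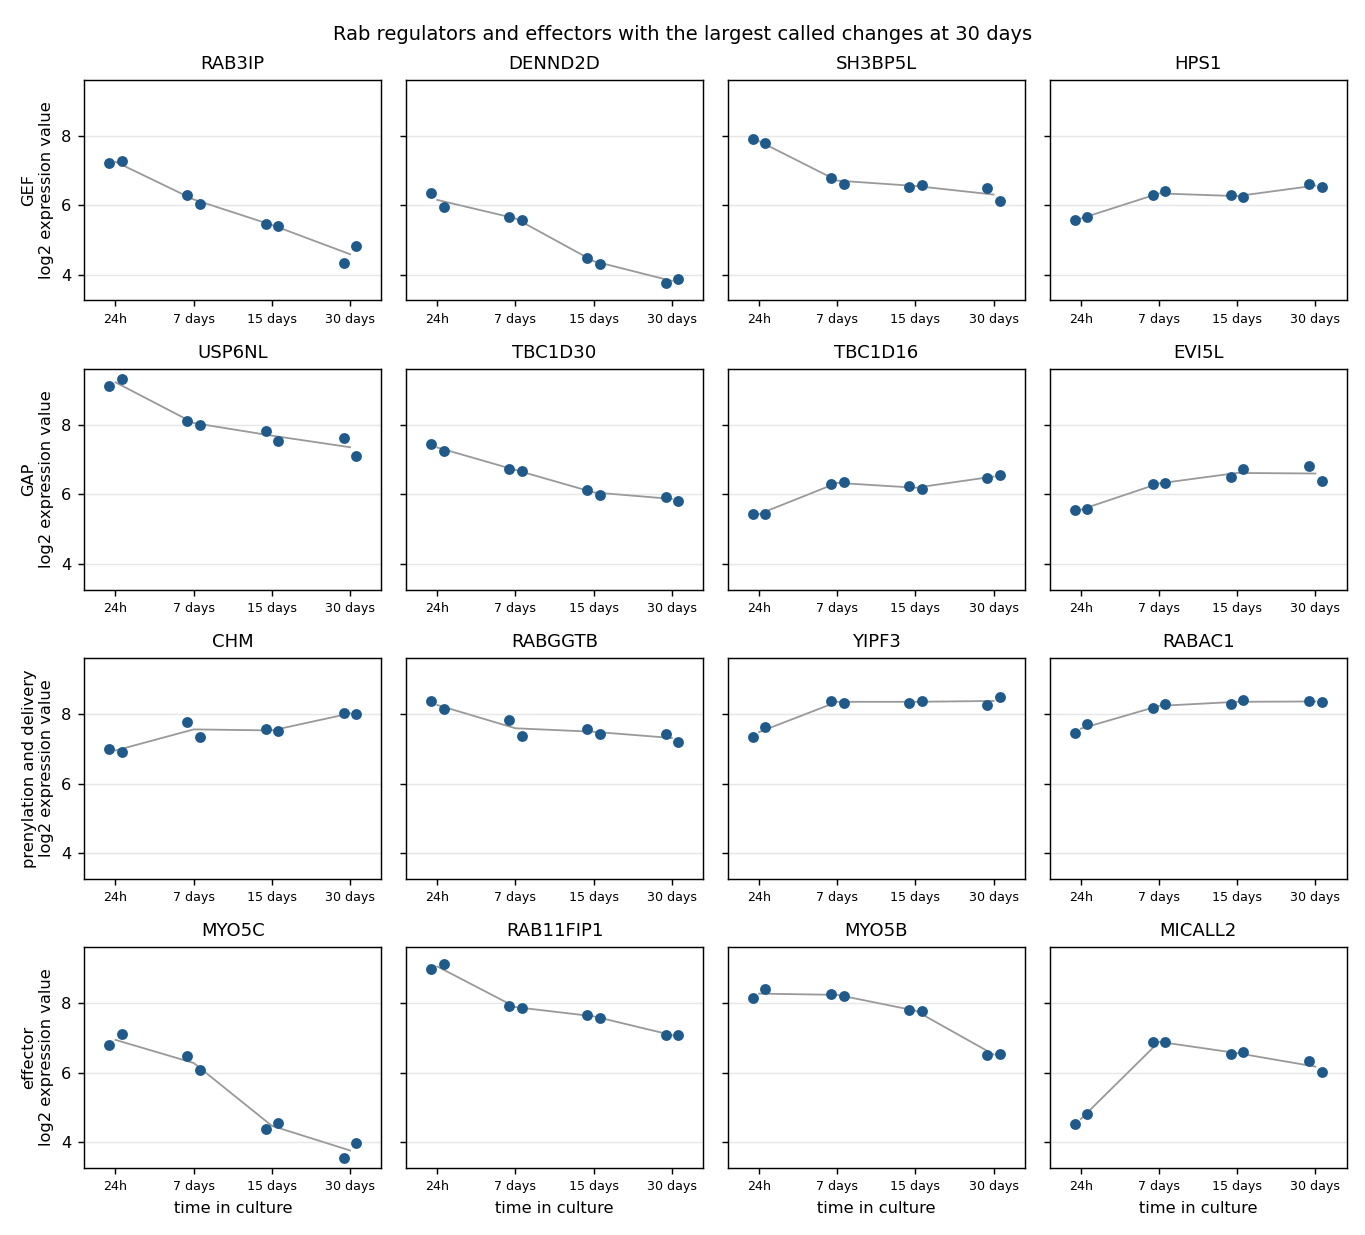
Log2 expression values by time in culture of the 16 Rab regulators and effectors with the largest called changes at 30 days, 4 from each list (rows: GEFs, GAPs, prenylation and delivery, effectors), with a point for each of the 2 arrays of a time and a line through the group means. RAB3IP, DENND2D and MYO5C go down at each time, MYO5B goes down mainly after 15 days, and MICALL2 is highest at 7 days.

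Of the effectors of RAB27A and RAB27B, 6 were measured, a set chosen after the values were seen. UNC13D, a priming factor of granule release, was higher than at 24h by 1.66 ± 0.27 at 7 days (SE, limma adjusted p = 9.71e-04) and by 1.64 at 15 days (limma adjusted p = 8.44e-04). At 30 days it was higher by 1.02, a call that ended without replicate 1 of 24h or replicate 1 of 30 days (changes down to 0.56 and adjusted p up to 0.087). SYTL5, a synaptotagmin-like protein, had a change of -0.83 at 15 days (limma adjusted p = 0.0401), a call that ended in 8 of 16 alternatives and was -0.31 without replicate 2 of 24h. Its change was -1.04 ± 0.28 at 30 days (SE, limma adjusted p = 0.0129), which was -0.51 without replicate 2 of 24h and -1.56 without replicate 1 of 24h and was not called without replicate 2 of 30 days (adjusted p = 0.0783). SYTL1, SYTL3, SYTL4 and MYRIP were not called against 24h, with changes between -0.47 and 0.42. SYTL3 and SYTL4 lay near or under the lower quartile of the arrays at all times, where a decrease may not be measurable. KIF20A, a mitotic kinesin that binds RAB6 and was likewise chosen after its values were seen, rose by 2.63 ± 0.26 at 7 days (SE, limma adjusted p = 4.6e-05) and fell by 3.35 from 15 to 30 days (limma adjusted p = 3.45e-05), while the changes of RAB6A over the same steps were 0.32 and 0.22.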

How the data were processed

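The authors deposited log2 values made with RMA, a method that normalizes arrays together, per the submitters' processing notes. The log scale was inferred from the range of values, and the software version was not given in the sources used here. RMA equalises the arrays, so that a change shared by most genes is hidden, and without detection calls dim genes cannot be told from absent ones.

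Of 27558 probe sets, 11968 carried 1 symbol, and 10901 genes remained with the probe set of highest mean kept. RefSeq (Sscrofa11.1) was used for names only. Of the 39 members, 37 also matched by identifier. Probe sets that name a Rab gene beside another gene (2) were left out.

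One linear model over all 8 arrays, with 1 mean per time, was fitted to all genes with limma 3.58.1 in R 4.3.3 (lmFit, eBayes, 4 residual degrees of freedom), unfiltered. Comparisons were 7, 15 and 30 days against 24h, 15 against 7 and 30 against 15 days, later minus earlier, with two-sided tests and Benjamini-Hochberg adjustment. Simulated data for 7 days against 24h had independent normal noise at each gene's own SD. Of 10901 genes, 100 were changed 2-fold and 100 were changed 4-fold. Of these 84 and 99 were called, with 15 unchanged genes. In the data 33.7% of genes were called in this comparison, a larger share than was changed here, so these rates may differ there. Precision is limited by the 2 arrays per time. The median SE of a log2 change was 0.13.

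The rule for naming took every Rab gene, with array values for called changes of at least 2-fold, and the 4 called regulators of each list with the largest change at 30 days. Array values of further members were added after they were seen. Members and lists were chosen with earlier results of these data known. Alternatives were each array left out in turn, a block for the replicate number, arrays centred on their median or quantile normalized again, a fit of just the 2 groups compared, a robust trended variance, probe sets averaged per gene or all tested, genes without the dimmest 25%, and a 2-fold minimum. Deviations of same-numbered arrays correlated over 0.1 in 1 of 6 pairs of times, so the numbers were not taken to pair samples.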

Additional observations from a re-analysis of the deposited data

How the results depend on the processing

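Of 52 calls of Rab genes, 25 held under every alternative setting that keeps the threshold, 10 of 15 at 30 days against 24h but 2 of 6 from 7 to 15 days. Averaging probe sets is one of these settings and could not change a Rab value. In the other direction, 49 of 3090 alternative values of Rab genes were called where the reported value was not. No called change turned its direction under any of them. Leaving out 1 array gave 9 to 12 Rab genes called at 7 days against 24h, 7 to 14 at 15 days and 11 to 15 at 30 days. From 7 to 15 days it gave 2 to 5, from 15 to 30 days 2 to 4, and 12 to 15 in the F test. With 1 array left at a time, that array is assumed to vary like the other groups. Asking for a change of at least 2-fold left 4, 5 and 4 Rab genes against 24h, 2 from 7 to 15 days and 1 from 15 to 30 days, by the construction of the threshold. Of all genes the same minimum left 9.89%, 12.8% and 16.7% against 24h and 3.62% and 3.27% between successive times. For the 92 regulators and effectors it left 9, 12 and 17 against 24h and 4 and 2 between successive times. Leaving out 1 array gave 6 to 14 of them from 7 to 15 days, against 12, and 3 to 10 from 15 to 30 days, against 9. With the replicate number as a block, 13, 16, 16, 6 and 6 Rab genes were called in the 5 comparisons and 17 in the F test. The numbers are not known to pair the arrays, whose deviations correlated at 0.0080 to 0.268. Dim probe sets and 2 arrays per time limit what could be detected.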
